A study of Homo sapiens with 9 samples.

Results

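The nuclear-encoded genes of respiratory complexes II to V were followed across 3 clones of the human melanoma line SK-MEL-5. Members were all protein-coding genes of the count table whose symbol is SDHA, SDHB, SDHC, SDHD, CYC1 or CYCS, or begins with UQCR, COX4, COX5, COX6, COX7, COX8 or ATP5. The rule uses gene names and no measured value. It took 53 of the 60675 IDs in the table. Of these, 4 belong to complex II, 10 to complex III and 17 to complex IV, 21 carry an ATP5 symbol (complex V), and CYCS encodes cytochrome c. Symbols are those of GENCODE 29 on GRCh38, so that ATP5MD, ATP5MPL and ATP5S stand for the genes now called ATP5MK, ATP5MJ and DMAC2L.

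RNA sequencing counts were available for 9 libraries, 3 for each of the clones SC10, SC07 and SC01. All 3 clones carry the mutated BRAF gene of the parental line, and none was treated. Each is a single clone, grown out from 1 cell by limiting dilution without drug, and the 3 were picked for their first response to the BRAF inhibitor PLX-4720. Which clone responded how is not stated in the labels. They are also silent on whether a clone's libraries are separate cultures, and p-values therefore measure the spread between libraries alone, possibly a technical one. A clone and its batch cannot be told apart.

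Complexes II, III and IV pass electrons from succinate and from reduced quinone, through cytochrome c, to oxygen. Complexes III and IV pump protons across the inner mitochondrial membrane, and complex V, the ATP synthase, lets them flow back through a rotating ring of c subunits to make ATP. All subunits of complex II are encoded in the nucleus. Cytochrome b of complex III, the catalytic core of complex IV and part of the proton channel of complex V are encoded in mitochondrial DNA. In melanoma, the coactivator PGC-1 alpha, encoded by PPARGC1A, is known to drive genes of this kind.

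Total counts ran from 30224066 to 39454087 per library. Library SC10 replicate 3 stood apart from the other SC10 libraries. Its chi-square of counts over genes, divided by the degrees of freedom, was 10 and 11.1 against them, and 2.51 between them. Of the 8 markers of melanocytes and melanoma that were looked up, 7 were detected and SOX10 was listed at 0 in all 9 libraries. The marker sums ran from 15300 to 15500 CPM (counts scaled to library size by TMM) in SC10, from 24500 to 25000 CPM in SC07 and from 10900 to 11500 CPM in SC01. Sums of 5 or 6 fibroblast, immune or testis markers stayed at or below 4.63 CPM in every library. Keratinocyte markers summed to 21.6 to 27.2 CPM, endothelial markers to 2.84 to 10.3 CPM and muscle markers to 41.3 to 75.6 CPM, most of the last from TNNT1 (72.6, 58.0 and 43.5 CPM on average in SC10, SC07 and SC01). In bulk RNA, fewer cells of a type and less RNA per cell cannot be told apart.

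Subunit c of the ATP synthase is encoded by 3 genes on different chromosomes, shown here because their balance differed among the clones. On GRCh38, ATP5MC1 lies on chromosome 17 (48892765 to 48895871, plus strand), ATP5MC2 on chromosome 12 (53632726 to 53677408, minus strand) and ATP5MC3 on chromosome 2 (175176258 to 175184607, minus strand). The precursors differ in their mitochondrial targeting ends, of 59, 64 and 65 residues in the same order, and share their last 77 residues without a difference. Of the 231 bases that code for this shared end, 57 are not the same in all 3 genes, so that reads from one gene can be told from those of the others. The first 120 of these bases are shown 5′ to 3′ on the coding strand, from GENCODE 29 transcripts, with the 28 bases that are not the same in all 3 genes in capitals.
ATP5MC1: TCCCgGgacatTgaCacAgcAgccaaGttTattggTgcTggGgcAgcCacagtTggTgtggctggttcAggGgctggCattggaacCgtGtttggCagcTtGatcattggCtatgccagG
ATP5MC2: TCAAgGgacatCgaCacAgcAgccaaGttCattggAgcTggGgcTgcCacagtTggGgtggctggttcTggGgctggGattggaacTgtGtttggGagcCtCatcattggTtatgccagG
ATP5MC3: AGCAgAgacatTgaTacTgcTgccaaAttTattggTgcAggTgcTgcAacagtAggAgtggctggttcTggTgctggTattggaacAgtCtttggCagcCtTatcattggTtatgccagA

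Promoters of 3 members are shown because their genes behaved differently, as described further on: ATP5F1A was higher in SC10 and SC07 than in SC01, ATP5F1C was higher in SC10 than in SC07, and ATP5MC2 was lower in SC10 than in either other clone. Each is the 120 bases before the RefSeq start of the gene (GRCh38.p14), 5′ to 3′ on the gene's strand. They cover chr18:46098297-46098416 (minus strand) for ATP5F1A, chr10:7788057-7788176 (plus strand) for ATP5F1C and chr12:53676084-53676203 (minus strand) for ATP5MC2. Capitals mark matches to motifs of factors known to bind promoters of respiratory genes. In ATP5F1A these are an ETS motif and a motif of estrogen-related receptors, both on the opposite strand, and in ATP5F1C and ATP5MC2 they are motifs of NRF1, nuclear respiratory factor 1.
ATP5F1A: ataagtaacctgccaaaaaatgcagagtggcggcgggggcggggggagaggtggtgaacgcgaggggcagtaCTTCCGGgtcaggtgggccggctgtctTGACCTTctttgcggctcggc
ATP5F1C: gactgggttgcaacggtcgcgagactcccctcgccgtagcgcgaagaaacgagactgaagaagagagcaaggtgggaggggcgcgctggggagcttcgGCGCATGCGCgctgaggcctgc
ATP5MC2: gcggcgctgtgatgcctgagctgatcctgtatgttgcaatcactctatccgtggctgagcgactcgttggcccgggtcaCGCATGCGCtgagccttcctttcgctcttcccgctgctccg

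The motifs were searched on both strands of the RefSeq windows, which run from 250 bases before to 50 bases after a start and were given for 37 of the 47 members that passed the filter on low counts. The NRF1 motif GCGCATGCG was found in 6 members (16.2%), against 4.01% of 10949 other tested protein-coding genes. The ETS motif CCGGAAG was found in 16 members (43.2%, against 21.3%), AAGGTCA of estrogen-related receptors in 7 (18.9%, against 3.8%) and AAGATGGCG of YY1 in 3 (8.11%, against 4.46%). The NRF1 motif overlaps itself on the opposite strand, which gives the pair of matches in ATP5F1C. Of the 37 members, 21 held at least 1 of the 4 motifs. A match describes the letters of the window and is not evidence of binding.

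Most of these genes were higher in SC10 and in SC07 than in SC01. Of the 47 members that passed the filter, 40 were higher in SC10 and 3 were lower at an adjusted p under 0.05 (edgeR's quasi-likelihood test, fitted and adjusted over all 18009 genes tested), where 33.5% of all genes tested were called higher and 32.4% lower (65.9% in all). The members' median log2 change was 0.598 in SC10 against SC01, beside -0.0127 over all genes. In SC07 against SC01, 44 members were higher and 2 lower, where 31.5% of all genes were called higher and 30.5% lower (62% in all). The median log2 change of the members was 0.627, beside -0.0103 over all genes. COX7B2, which passed the filter through SC07 alone, is among the 44. It is also counted below among 2-fold changes in SC07, among members without overlap with SC07 and among those lower in SC10 than in SC07. Both comparisons use the same SC01 libraries. Higher in both clones were 40 members, where 24.2% of all genes were.

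Overlap between libraries was rare among the members against SC01, and between SC10 and SC07 it was about as common as over all genes. SC10 and SC01 did not overlap in 42 of the 47 members, where 69.1% of all genes did not overlap. SC07 and SC01 did not overlap in 46, where 67.4% did not. SC10 and SC07 did not overlap in 24 of the 47, where 53.4% of all genes did not. Changes of 2-fold or more upwards were called for 6 members in SC10 (11.2% of all genes) and for 10 in SC07 (9.15% of all genes), so most of the changes were smaller than 2-fold. Summed over all 53 members, the level was 12610 ± 811 CPM in SC10, 13990 ± 287 CPM in SC07 and 8020 ± 196 CPM in SC01 (mean ± SD, n = 3 here and below), or 1.26%, 1.4% and 0.802% of the scaled counts in the same order. When all 3 clones were tested together, each of the 47 members differed somewhere among them, as did 76.3% of all genes.

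**Figure D1:**
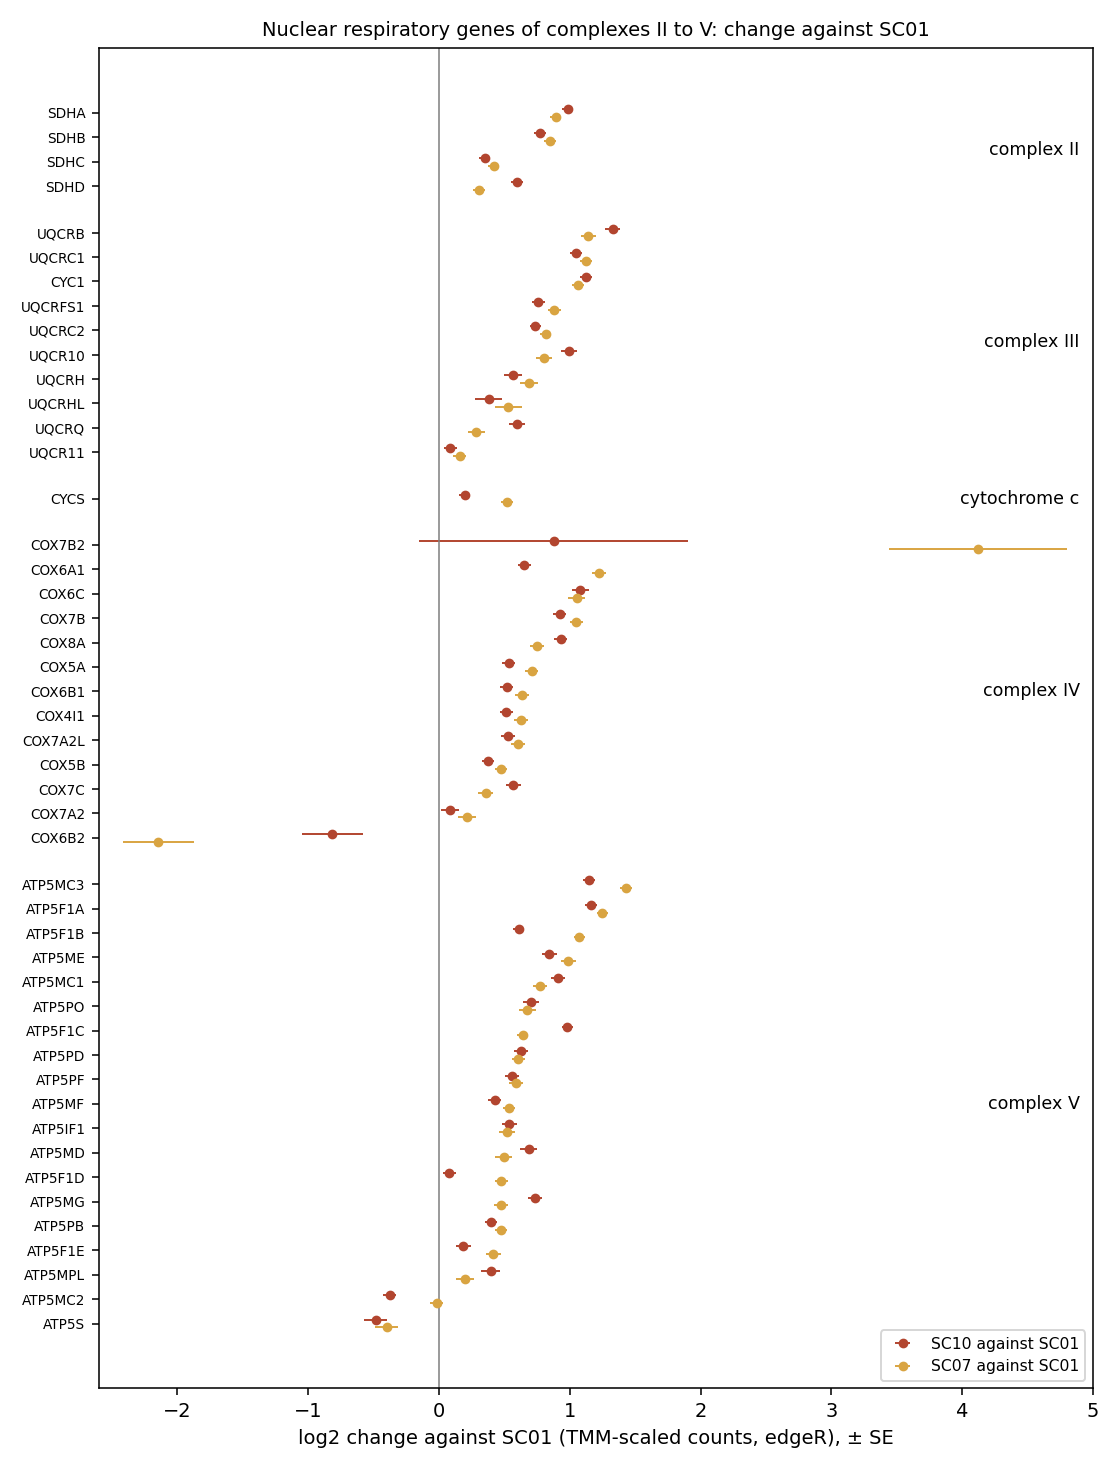
Log2 change of each tested member in SC10 (red) and in SC07 (yellow) against SC01, with its standard error, grouped by complex down the page and ordered by the change in SC07. Nearly all points lie right of 0, and COX6B2 and ATP5S lie left of it in both clones, with ATP5MC2 left of 0 in SC10.

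Between SC10 and SC07, members went both ways, with all libraries in shares close to those over all genes. In SC10 against SC07, 12 members were higher and 12 lower, where 24.8% of all genes were called higher and 23% lower (47.9% in all), and the other 23 did not pass. A change of 2-fold or more upwards was called for COX6B2 alone (5.84% of all genes). The median log2 change was -0.0755, beside -0.00566 over all genes. SC10 and SC07 did not overlap in 24 members, where 53.4% of all genes did not. The counts rest in part on SC10 replicate 3, the library that stood apart: without it, 9 members were higher and 26 lower. The calls of UQCRFS1, COX7B, ATP5MC1, ATP5MD, ATP5ME and ATP5MPL were each lost when 1 or another library was left out.

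**Figure D2:**
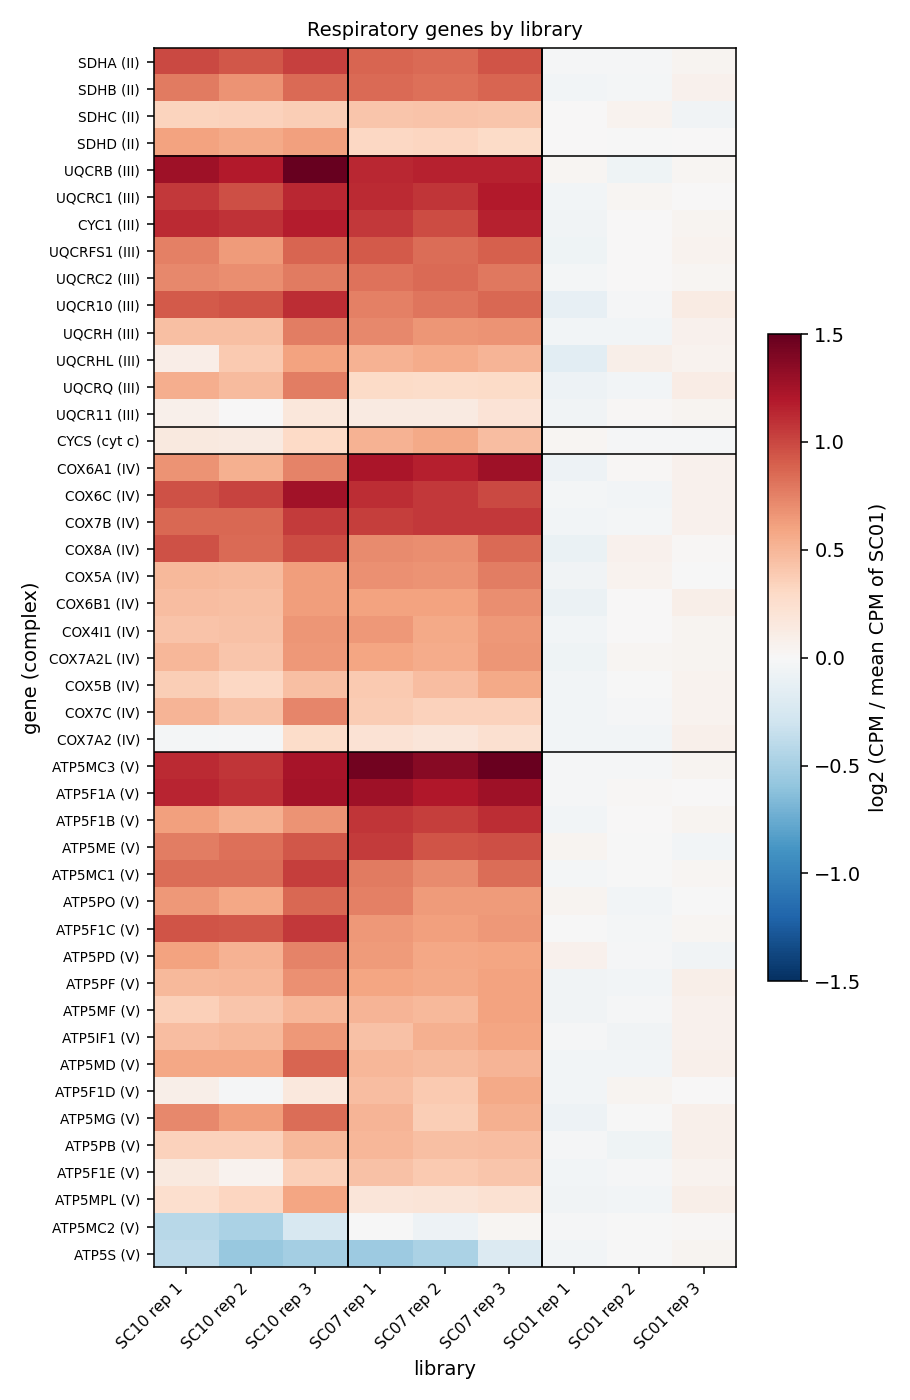
Level of each tested member in each library (columns) as the log2 of its CPM over the mean of SC01, without COX6B2 and COX7B2, which had few counts. The 6 SC10 and SC07 libraries are red in nearly all rows, SC10 replicate 3 is the darkest SC10 column in most rows, and the blue rows at the foot are ATP5MC2 and ATP5S.

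Complex II, or succinate dehydrogenase, has 4 subunits, and all 4 were higher in both clones than in SC01. Of all genes tested, 33.5% were called higher in SC10 and 31.5% in SC07. SDHA, the flavoprotein that oxidises succinate, measured 353, 338 and 360.2 CPM in SC10, 325, 319.6 and 341 CPM in SC07 and 174, 175 and 182 CPM in SC01. All SC10 and SC07 libraries lay far above those of SC01, and SC10 overlapped SC07. The log2 change of SDHA was 0.98 ± 0.043 (SE, adjusted p = 2.1e-17) in SC10 and 0.89 ± 0.043 (SE, adjusted p = 2e-16) in SC07 against SC01, the largest of the complex in both. SDHB, the iron-sulfur subunit, changed by 0.77 in SC10 and 0.85 in SC07.

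The membrane anchors of complex II, SDHC and SDHD, changed less than the catalytic pair. SDHC measured 184, 184 and 188 CPM in SC10, 194, 195 and 193 CPM in SC07 and 146, 150.3 and 139.8 CPM in SC01. Its log2 change was 0.35 ± 0.042 (SE, adjusted p = 3e-08) in SC10, the smallest of the complex there, and 0.42 ± 0.042 (SE, adjusted p = 1.4e-09) in SC07. SDHD measured 96.0, 93.5 and 96.5 CPM in SC10, 78.2, 78.8 and 76.9 CPM in SC07 and 63.2, 62.7 and 63.3 CPM in SC01, and the 3 clones did not overlap. It changed by 0.60 ± 0.045 (SE, adjusted p = 2.9e-12) in SC10 and by 0.31 ± 0.045 (SE, adjusted p = 1.1e-06) in SC07, the smallest of the complex there. SDHD differed between SC10 and SC07 past the threshold, with a log2 change of 0.29 ± 0.044 (SE, adjusted p = 3.9e-06). The other 3 did not pass, with changes from -0.0772 (SDHB) to 0.09 (SDHA, adjusted p = 0.073). SDHA passed with the replicate block (0.093, adjusted p = 0.045), with a filter of at least 1 CPM in 3 libraries (0.102, adjusted p = 0.0335), without SC07 replicate 3 (0.122, adjusted p = 0.0278) and without SC10 replicate 2 (0.125, adjusted p = 0.0249), and SDHB passed without SC10 replicate 3 (-0.108, adjusted p = 0.0179).

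Complex III, the cytochrome bc1 complex, passes electrons from quinol to cytochrome c. Its 10 genes had a median log2 change of 0.748 in SC10 and 0.81 in SC07 against SC01. In SC10, 9 were higher and UQCR11 did not pass, and in SC07 all 10 were higher, where 33.5% and 31.5% of all genes were called higher. UQCRB, a small subunit that helps to bind quinone, had the largest change of the complex in both, at 308, 292 and 361 CPM in SC10, 278, 284 and 284 CPM in SC07 and 130.2, 122 and 131 CPM in SC01. The highest SC01 library was below all SC10 and SC07 libraries, and its log2 change was 1.33 ± 0.06 (SE, adjusted p = 7.5e-14) in SC10 and 1.14 ± 0.06 (SE, adjusted p = 9.5e-13) in SC07. Between SC10 and SC07 it was 0.18 ± 0.058 (SE, adjusted p = 0.013).

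The electron-carrying and core subunits of complex III were higher as well. CYC1, which holds the haem of cytochrome c1, averaged 433 ± 14.1 CPM in SC10, 415 ± 25.4 CPM in SC07 and 199 ± 6.72 CPM in SC01, with log2 changes of 1.12 in SC10 and 1.06 in SC07. UQCRC1 and UQCRC2 form the core on the matrix side. UQCRC1 averaged 546 ± 31.6 CPM in SC10, 575 ± 23.1 CPM in SC07 and 264 ± 6.04 CPM in SC01, and UQCRC2 274 ± 7.41 CPM in SC10, 289.9 ± 6.09 CPM in SC07 and 165 ± 3.31 CPM in SC01. UQCRFS1, the Rieske iron-sulfur protein, changed by 0.76 in SC10 and 0.88 in SC07. Its small difference between those clones (log2 change -0.12, adjusted p = 0.042) lay near the threshold, and it was lost with DESeq2 (adjusted p = 0.0567). Pseudogenes of UQCRFS1 held counts equal to 2.35%, 2.81% and 2.52% of its own in SC10, SC07 and SC01. Pseudogenes were sought by the symbol rule of the members, which takes SDHA, SDHB, SDHC, SDHD, CYC1 and CYCS by exact name. Any pseudogenes of those genes were therefore not looked up.

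Small accessory subunits of complex III held both small and large changes. UQCR11 measured 71.7, 68.6 and 76.8 CPM in SC10, 75.0, 74.9 and 78.5 CPM in SC07 and 65.5, 69.0 and 69.8 CPM in SC01, the smallest change of the complex in both comparisons. SC10 overlapped SC01, with a log2 change of 0.09 ± 0.05 (SE, adjusted p = 0.13), and SC07 lay above SC01 by 0.16 ± 0.05 (SE, adjusted p = 0.0071). The call in SC07 was lost without SC01 replicate 1 (0.126, adjusted p = 0.0574) and with library totals (0.0531, adjusted p = 0.348), and without SC10 replicate 2 SC10 passed (0.126, adjusted p = 0.0423). UQCRQ, a quinone-binding subunit, measured 164, 156 and 191 CPM in SC10, 137, 137 and 138 CPM in SC07 and 107, 109 and 121 CPM in SC01. All SC10 libraries lay above those of SC07, and these above those of SC01. The change of UQCRQ between SC10 and SC07 was 0.31 ± 0.063 (SE, adjusted p = 0.00048), the largest of the complex, and it was 0.60 ± 0.064 (SE, adjusted p = 1.4e-07) in SC10 and 0.29 ± 0.064 (SE, adjusted p = 0.00073) in SC07 against SC01. UQCR10 was likewise higher in SC10 than in SC07, by 0.19 ± 0.057 (SE, adjusted p = 0.0078).

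The hinge protein of complex III has a main gene, UQCRH, and a near copy without introns, UQCRHL. Their coding sequences differ at 4 of 276 bases, in 3 residues, so reads may have been counted for the wrong copy. UQCRH averaged 273 ± 35.1 CPM in SC10, 297 ± 6.99 CPM in SC07 and 185 ± 7.94 CPM in SC01, and UQCRHL 28.0 ± 4.83 CPM in SC10, 31.1 ± 0.58 CPM in SC07 and 21.5 ± 1.92 CPM in SC01. The log2 change of UQCRHL was 0.38 ± 0.1 (SE, adjusted p = 0.0055) in SC10, 0.53 ± 0.1 (SE, adjusted p = 0.00046) in SC07, and -0.15 ± 0.1 (SE, adjusted p = 0.24) in SC10 against SC07, the lowest of the complex. That last difference passed without SC10 replicate 3 (-0.27, adjusted p = 0.00341). The share of UQCRHL in the summed counts per kilobase of both was 2.76% ± 0.28 in SC10, 2.82% ± 0.095 in SC07 and 3.13% ± 0.26 in SC01, and did not differ past the threshold among the clones (exact permutation test over the 9 libraries, p = 0.179).

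Cytochrome c, the carrier between complexes III and IV, changed less than most subunits. CYCS measured 618, 610.0 and 684 CPM in SC10, 799, 823 and 767 CPM in SC07 and 568, 551 and 551 CPM in SC01. The 3 clones did not overlap, with SC07 highest and SC01 lowest. The log2 change was 0.20 ± 0.045 (SE, adjusted p = 0.00042) in SC10 and 0.52 ± 0.045 (SE, adjusted p = 8.3e-11) in SC07 against SC01, and -0.32 ± 0.045 (SE, adjusted p = 1.1e-06) in SC10 against SC07. Scaled by library totals, the change in SC10 against SC01 was 0.0844 (adjusted p = 0.0959). Per kilobase of transcript, CYCS stood at 719, 898 and 628 CPM per kb in SC10, SC07 and SC01, behind ATP5F1B among the members in SC01.

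Complex IV, cytochrome c oxidase, reduces oxygen, and its nuclear subunits surround a core made in the mitochondria. Of its 17 genes, 13 passed the filter. In SC10, 10 were higher than in SC01, COX6B2 was lower, and COX7A2 and COX7B2 did not pass. In SC07, 12 were higher and COX6B2 was lower. Over all genes, 33.5% were called higher and 32.4% lower in SC10, and 31.5% and 30.5% in SC07. Leaving out the rare forms COX6B2 and COX7B2, the common subunits ranged from 0.08 (COX7A2) to 1.08 (COX6C) in SC10, and from 0.21 (COX7A2) to 1.22 (COX6A1) in SC07, on the log2 scale.

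Among the common subunits, COX6C measured 194, 203 and 239 CPM in SC10, 216, 208 and 199.8 CPM in SC07 and 98.6, 97.6 and 104 CPM in SC01. It had the largest change of the complex in SC10, 1.08 ± 0.064 (SE, adjusted p = 4.2e-11), and changed by 1.05 ± 0.064 (SE, adjusted p = 6.8e-11) in SC07, while SC10 and SC07 overlapped. COX7B averaged 339 ± 25.5 CPM in SC10, 369.9 ± 3.80 CPM in SC07 and 179 ± 7.63 CPM in SC01, with log2 changes of 0.92 in SC10 and 1.05 in SC07. COX8A changed by 0.93 and 0.75 in the same order. COX4I1, a regulatory subunit that binds adenine nucleotides, averaged 472 ± 45.3 CPM in SC10, 510.0 ± 17.1 CPM in SC07 and 330.2 ± 9.58 CPM in SC01. COX5A and COX5B changed by 0.53 and 0.37 in SC10, and by 0.71 and 0.47 in SC07.

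COX6A1 separated SC07 from both other clones. It measured 173, 157 and 182 CPM in SC10, 254, 244 and 263 CPM in SC07 and 103, 109.5 and 113 CPM in SC01, and the clones did not overlap. The log2 change was 0.65 ± 0.051 (SE, adjusted p = 7.8e-12) in SC10 and 1.22 ± 0.051 (SE, adjusted p = 8.6e-18) in SC07 against SC01, and -0.57 ± 0.05 (SE, adjusted p = 2.9e-10) in SC10 against SC07. Pseudogenes of COX6A1 held counts equal to 11.6%, 11.9% and 12.3% of its own in SC10, SC07 and SC01, a share of like size in each clone. COX7C went the other way, at 299 ± 32.2 CPM in SC10, 259 ± 4.38 CPM in SC07 and 202 ± 6.23 CPM in SC01, with a log2 change of 0.21 ± 0.055 (SE, adjusted p = 0.0031) in SC10 against SC07.

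COX7A2 is the common form of a subunit whose related forms include COX7A2L, known for its place in supercomplexes of complexes III and IV. COX7A2 measured 98.1, 98.4 and 121 CPM in SC10, 116, 113 and 118 CPM in SC07 and 97.0, 97.2 and 106 CPM in SC01. SC10 overlapped SC01, with a log2 change of 0.08 ± 0.066 (SE, adjusted p = 0.29), and the change in SC07 was 0.21 ± 0.066 (SE, adjusted p = 0.0098). That call was lost with library totals (0.106, adjusted p = 0.17), without SC01 replicate 1 (0.186, adjusted p = 0.0523) and without SC07 replicate 3 (0.197, adjusted p = 0.0547). COX7A2L averaged 166 ± 13.7 CPM in SC10, 175 ± 6.27 CPM in SC07 and 115 ± 4.68 CPM in SC01, with log2 changes of 0.53 in SC10 and 0.60 in SC07. The share of COX7A2L in the summed counts per kilobase of COX7A1, COX7A2 and COX7A2L was 44.6% ± 1.3 in SC10, 43.6% ± 0.37 in SC07 and 37.1% ± 0.89 in SC01. It differed among the clones (exact permutation test, p = 0.0107, and 0.0188 after adjustment over the 7 shares tested).

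Tissue isoforms of complex IV were rare. COX4I2, a lung form, and COX8C, a testis form, had 0 counts in all 9 libraries, where 3 counts equal 0.0773 to 0.0948 CPM by library. These floors cover counting error only. COX6A2 and COX7A1, the heart and skeletal muscle forms, had 0, 0 and 1 counts, and 5, 1 and 13 counts, summed over the libraries of SC10, SC07 and SC01. Of the 13 COX7A1 counts in SC01, 10 came from replicate 2.

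COX6B2, a form known from testis, was the only complex IV gene that was lower in both clones. It measured 1.28, 1.07 and 1.03 CPM in SC10, 0.457, 0.464 and 0.418 CPM in SC07 and 2.25, 2.31 and 1.41 CPM in SC01. The 3 clones did not overlap, with SC01 highest and SC07 lowest. Its log2 change was -0.81 ± 0.23 (SE, adjusted p = 0.0034) in SC10 and -2.15 ± 0.27 (SE, adjusted p = 8.1e-08) in SC07 against SC01, and 1.33 ± 0.29 (SE, adjusted p = 0.00034) in SC10 against SC07. The common partner COX6B1 went the other way, at 316 ± 22.1 CPM in SC10, 343 ± 12.8 CPM in SC07 and 221 ± 13.1 CPM in SC01. COX6B2 made up 0.102% of their summed counts per kilobase in SC10, 0.0372% in SC07 and 0.259% in SC01 (exact permutation p = 0.00357, the smallest the design allows). Another annotated gene, AC020922.1, covers 30.9% of the COX6B2 exons on the same strand. Testis markers summed to 0.148 to 0.245 CPM in SC10, 0.269 to 0.365 CPM in SC07 and 0.439 to 0.506 CPM in SC01, and their part in the result was not tested.

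COX7B2, a rare relative of COX7B, was seen almost entirely in SC07. It had 3, 1 and 2 counts in the SC10 libraries, 27, 16 and 17 in SC07, and 0, 1 and 2 in SC01. The SC07 libraries lay above all others, while SC10 and SC01 overlapped. The count ratio of SC07 over SC01 was 19.3 (exact 95% counting interval 6.3 to 96.2), and that of SC07 over SC10 was 9.92 (4.3 to 28.1). COX7B2 passed the filter through SC07 alone, so its call there is no support for the members as a group. Its level in SC07, 0.581 ± 0.21 CPM, stood beside 369.9 CPM for COX7B.

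**Figure D3:**
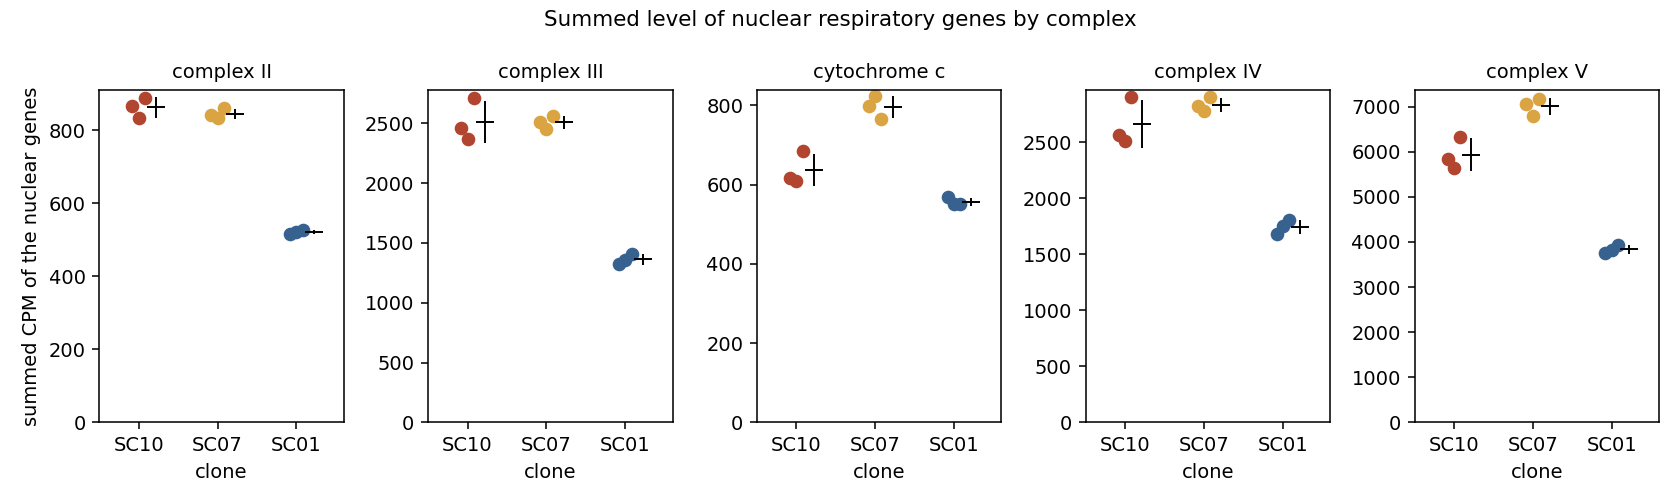
Summed CPM of the nuclear genes of each complex by library (points) with mean and SD (cross), each panel starting at 0. For every complex the 3 SC01 libraries lie lowest, SC07 lies above SC10 for cytochrome c and complex V, and SC10 and SC07 overlap for complexes II, III and IV.

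Complex V had 19 tested genes. In SC10, 16 were higher than in SC01, ATP5MC2 and ATP5S were lower, and ATP5F1D did not pass. In SC07, 17 were higher, ATP5S was lower, and ATP5MC2 did not pass. The shares over all genes were 33.5% higher and 32.4% lower in SC10, and 31.5% and 30.5% in SC07. The median log2 change was 0.608 in SC10 and 0.535 in SC07. Summed over its genes, complex V averaged 5936 ± 357 CPM in SC10, 7006 ± 188 CPM in SC07 and 3834 ± 92.4 CPM in SC01.

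The catalytic head of the ATP synthase is built from alpha and beta subunits. ATP5F1A, the alpha subunit, measured 958, 931 and 1036 CPM in SC10, 1052, 1004 and 1049 CPM in SC07 and 428, 440.2 and 437 CPM in SC01. SC10 overlapped SC07, and both lay far above SC01, with log2 changes of 1.16 ± 0.044 (SE, adjusted p = 7e-19) in SC10, the largest of the complex there, and 1.25 ± 0.044 (SE, adjusted p = 1.3e-19) in SC07. ATP5F1B, the catalytic beta subunit, had the highest level of all members per kilobase and measured 2188, 2079 and 2289 CPM in SC10, 3018, 2932 and 3093 CPM in SC07 and 1390, 1438 and 1473 CPM in SC01. The 3 clones did not overlap. The change of ATP5F1B was 0.61 ± 0.043 (SE, adjusted p = 8.2e-13) in SC10 and 1.07 ± 0.043 (SE, adjusted p = 3.2e-18) in SC07 against SC01, and -0.46 ± 0.043 (SE, adjusted p = 6.6e-10) in SC10 against SC07, the lowest of the complex.

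The central stalk turns inside this head and consists of the gamma, delta and epsilon subunits. ATP5F1C, the gamma subunit, measured 193, 191 and 208 CPM in SC10, 156, 153 and 157 CPM in SC07 and 99.8, 98.2 and 102 CPM in SC01. SC10 lay above SC07 without overlap, by a log2 change of 0.34 ± 0.043 (SE, adjusted p = 2.1e-07), the highest of the complex, and its changes against SC01 were 0.98 in SC10 and 0.64 in SC07. ATP5F1D, the delta subunit, went the other way, at 155, 143 and 162 CPM in SC10, 199.9, 190.0 and 215 CPM in SC07 and 141, 149 and 145 CPM in SC01. SC10 overlapped SC01, with a log2 change of 0.08 ± 0.051 (SE, adjusted p = 0.17), while SC07 lay above both, by 0.48 ± 0.051 (SE, adjusted p = 3.7e-09) against SC01. Without SC10 replicate 2, the change in SC10 passed (0.131, adjusted p = 0.0276). In SC10 against SC07, ATP5F1D changed by -0.40 ± 0.05 (SE, adjusted p = 2.2e-07). ATP5F1E, the epsilon subunit, averaged 254 ± 27.9 CPM in SC10, 297 ± 5.54 CPM in SC07 and 223 ± 7.18 CPM in SC01, also lower in SC10 than in SC07 (-0.23, adjusted p = 0.0022). For ATP5F1E, SC10 overlapped SC01, with 230.5 CPM in SC10 replicate 2 and 230.9 CPM in SC01 replicate 3. Its log2 change in SC10 against SC01 was 0.19 (adjusted p = 0.0066), and the call was lost with library totals (0.0763, adjusted p = 0.239).

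For the ring of c subunits, the clones differed in which gene supplied the largest share of transcript. ATP5MC1 measured 162, 162 and 187 CPM in SC10, 155, 148 and 162 CPM in SC07 and 88.9, 90.1 and 92.8 CPM in SC01. ATP5MC2 measured 217, 207 and 243 CPM in SC10, 288, 272 and 295 CPM in SC07 and 285, 287 and 292 CPM in SC01. ATP5MC3 measured 468, 456 and 510.4 CPM in SC10, 589, 558 and 602 CPM in SC07 and 213, 214 and 221 CPM in SC01. ATP5MC1 and ATP5MC3 were far lower in SC01 than in both other clones, whereas ATP5MC2 was lowest in SC10 and overlapped between SC07 and SC01.

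ATP5MC3 had a log2 change of 1.15 ± 0.046 (SE, adjusted p = 3.4e-18) in SC10 and 1.43 ± 0.046 (SE, adjusted p = 2.3e-20) in SC07 against SC01, the largest of the complex in SC07. ATP5MC1 changed by 0.91 ± 0.052 (SE, adjusted p = 9.8e-15) in SC10 and by 0.77 ± 0.052 (SE, adjusted p = 3.8e-13) in SC07. ATP5MC2 changed by -0.38 ± 0.05 (SE, adjusted p = 1.9e-07) in SC10 and by -0.02 ± 0.049 (SE, adjusted p = 0.8) in SC07, and by -0.36 ± 0.05 (SE, adjusted p = 8.9e-07) in SC10 against SC07. Among the c genes, ATP5MC2 was lower in SC10 than in SC01 while its 2 partners were higher. With library totals, ATP5MC2 was also lower in SC07 than in SC01 (-0.123, adjusted p = 0.0264).

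As a share of the summed counts per kilobase of the 3 genes, ATP5MC2 made up 23.3%, 22.8% and 23.5% in SC10, 26.0%, 26.0% and 26.0% in SC07 and 45%, 44.9% and 44.6% in SC01. ATP5MC3 made up 48.6%, 48.4% and 47.5% in SC10, 51.4%, 51.3% and 51.1% in SC07 and 32.4%, 32.3% and 32.6% in SC01. The main supplier in SC01 was ATP5MC2, and in SC10 and SC07 it was ATP5MC3, with no overlap between SC01 and either other clone. Both shares differed among the clones at p = 0.00357, the smallest that the exact permutation test over 9 libraries allows (0.00833 after adjustment over the 7 shares). The share of ATP5MC1 was 28.6% ± 0.51 in SC10, 22.8% ± 0.15 in SC07 and 22.7% ± 0.11 in SC01 (exact permutation p = 0.0321, adjusted 0.0417), so that SC10 stood apart and SC07 overlapped SC01. The size of these shares depends on the length used. With the union of all exons as length, ATP5MC3 made up 36.9% in SC10, 39.7% in SC07 and 23% in SC01, and ATP5MC2 29.1%, 33% and 52.1% in the same order, so the leading gene of each clone was the same. The ATP5MC1 share was then 34% in SC10, 27.3% in SC07 and 25% in SC01, without overlap between SC07 and SC01.

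**Figure D4:**
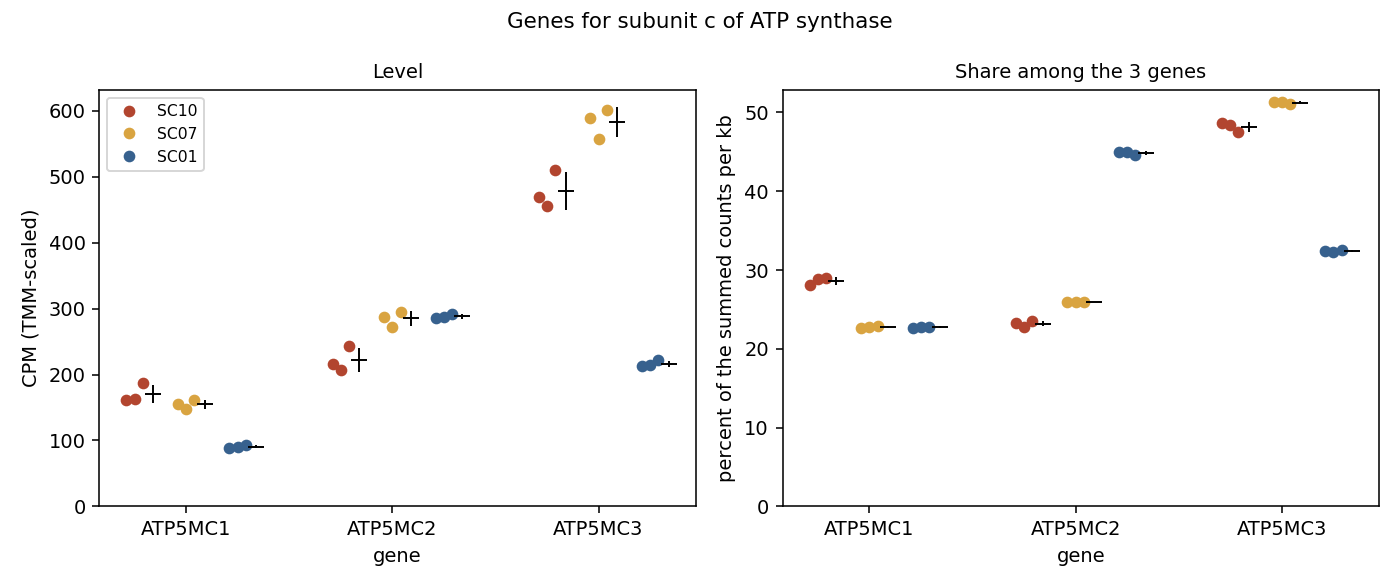
Left, CPM of the c-subunit genes by library (points) with mean and SD (cross); right, share of each gene in their summed counts per kilobase, in percent. ATP5MC2 holds 44.6% to 45% of the sum in SC01 and 22.8% to 26% in SC10 and SC07.

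The stalk and membrane subunits of complex V moved in a narrower range. ATP5PB, ATP5PD, ATP5PF and ATP5PO form the peripheral stalk that holds the head still. Their log2 changes lay between 0.40 (ATP5PB) and 0.70 (ATP5PO) in SC10, and between 0.47 (ATP5PB) and 0.68 (ATP5PO) in SC07. None of the 4 differed between SC10 and SC07 past the threshold with all libraries, and without SC10 replicate 3 ATP5PB passed (-0.116, adjusted p = 0.00841). The small membrane subunits ATP5ME, ATP5MF, ATP5MG, ATP5MD and ATP5MPL changed by 0.40 (ATP5MPL) to 0.84 (ATP5ME) in SC10, and by 0.20 (ATP5MPL) to 0.99 (ATP5ME) in SC07. The call of ATP5MPL in SC07 was lost with library totals (0.0922, adjusted p = 0.277) and without SC01 replicate 1 or 2 or SC07 replicate 2 or 3 (adjusted p of 0.0559 to 0.105). The gene MYL5 covers 61.6% of the ATP5ME exons on the opposite strand, and without a stated strand setting their reads cannot be told apart.

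ATP5IF1 encodes the inhibitor that stops the synthase from running backwards. It averaged 45.4 ± 3.28 CPM in SC10, 44.9 ± 2.28 CPM in SC07 and 31.3 ± 1.23 CPM in SC01, a log2 change of 0.54 ± 0.06 (SE, adjusted p = 8.2e-09) in SC10 and 0.52 ± 0.06 (SE, adjusted p = 1.7e-08) in SC07, close to the medians of the complex. ATP5S, whose current name is not that of a synthase subunit, was lower in both. It measured 12.2, 10.9 and 11.3 CPM in SC10, 11.1, 11.6 and 14.0 CPM in SC07 and 15.7, 16.0 and 16.6 CPM in SC01, without overlap between SC01 and either clone. Its log2 change was -0.49 ± 0.088 (SE, adjusted p = 2.1e-05) in SC10 and -0.40 ± 0.087 (SE, adjusted p = 0.00024) in SC07. The remaining symbols had almost no counts. ATP5MGL had 1, 3 and 0 counts, and the readthrough ATP5MF-PTCD1 had 3, 4 and 4, summed over SC10, SC07 and SC01.

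The differences between SC10 and SC07 varied with position in the genome. For each member, the median change of the tested protein-coding genes within 5 Mb on either side was taken, without members. Across 45 members the change of the member and of its neighbours had a Pearson r of 0.869 and a Spearman rho of 0.777 in SC10 against SC07. COX6B2 and COX7B2 were left out after their values were seen, and over all 47 members r was 0.288 and rho 0.653. Members near each other share neighbours, and all points share the same libraries, so these are descriptions. The SD of the 45 changes was 0.204, and 0.104 after each member's neighbour median had been subtracted.

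**Figure D5:**
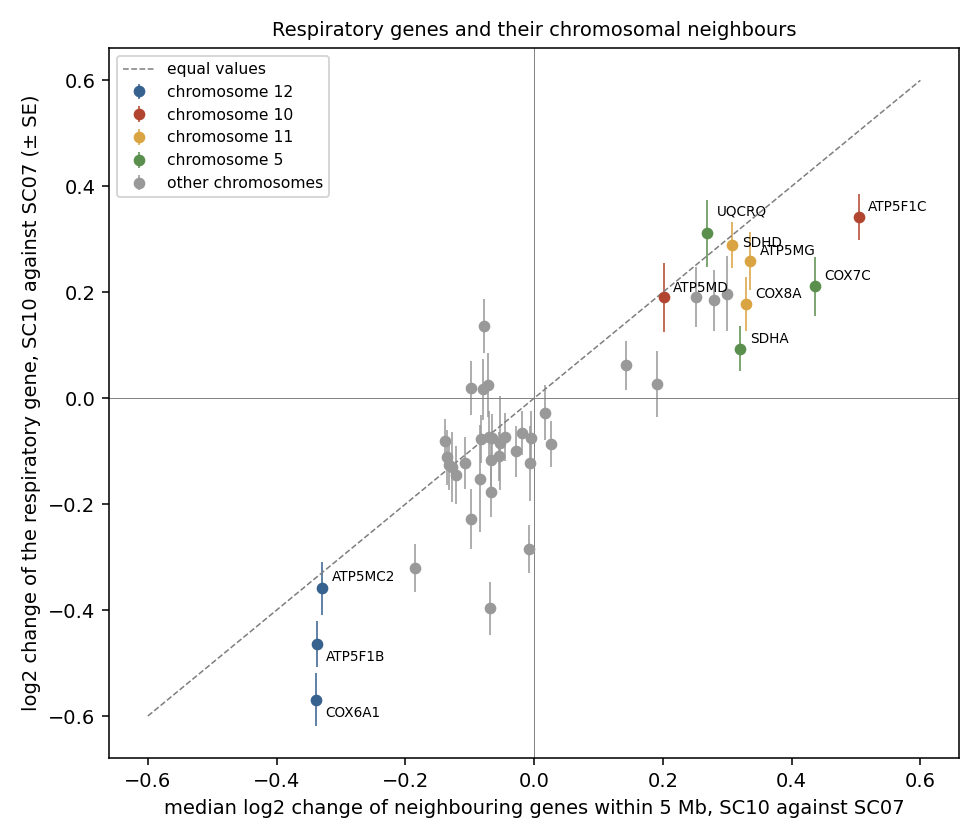
Log2 change of 45 members in SC10 against SC07 (± SE) against the median change of their neighbours within 5 Mb. The chromosome 12 members lie at the lower left, those of chromosomes 5, 10 and 11 at the upper right, and the dashed line marks equal values.

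Members that lie on chromosomes 5, 10, 11 and 12 gave the clearest cases. On chromosome 12, COX6A1, ATP5F1B and ATP5MC2 were all lower in SC10 than in SC07, with a median log2 change of -0.464 where their neighbours had -0.338. On chromosome 10, ATP5F1C and ATP5MD were both higher, with a median of 0.266 where the neighbours had 0.353. On chromosome 11, SDHD, COX8A and ATP5MG were all higher, with a median of 0.259 beside 0.329. On chromosome 5, UQCRQ and COX7C were higher and SDHA (0.09) did not pass, with a median of 0.211 beside 0.32. Whether DNA copy number differs between the clones was not tested.

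Against SC01, the members also varied with their neighbours, and most lay above them. Across the same 45 members, Pearson r was 0.582 and Spearman rho 0.569 in SC10 against SC01, and r was 0.483 and rho 0.341 in SC07 against SC01. The SD of the changes was 0.38 in SC10, and 0.31 after the neighbour medians had been subtracted, and in SC07 it was 0.358, and 0.314 after subtraction. In SC10 against SC01, 44 of the 47 members changed more in the upward direction than their neighbours' median, with a median log2 difference of 0.642. In SC07 against SC01, 45 did, with a median of 0.672. In SC10 against SC07, 10 of the 47 did, with a median of -0.0558. ATP5F1D, ATP5MC3 and COX6A1 were the members farthest from the line of equal values in SC10 against SC07, with -0.40, -0.29 and -0.57, where COX6B2 and COX7B2 are left aside. Around the c-subunit genes, the neighbours' medians in SC10 against SC01 were 0.267 (ATP5MC1), -0.314 (ATP5MC2) and 0.325 (ATP5MC3). In SC07 against SC01 they were 0.31, -0.0382 and 0.402 in the same order. The part of position in the shares of these genes was not tested.

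Genes that work beside the complexes were described from lists chosen with earlier results known. Of the 6 mitochondrially encoded partners of complexes III to V, all 6 were higher in SC10 and in SC07 than in SC01, with median log2 changes of 0.645 and 0.404. MT-CO2, which holds a copper centre of complex IV, averaged 13840 ± 574 CPM in SC10, 11120 ± 167 CPM in SC07 and 7448 ± 147 CPM in SC01. MT-CYB, the cytochrome b of complex III, averaged 9991 ± 527 CPM in SC10, 10460 ± 189 CPM in SC07 and 6258 ± 80.9 CPM in SC01. Mitochondrial messenger RNA took 9.42% to 9.89% of the counts in SC10, 8.52% to 8.96% in SC07 and 6.35% to 6.46% in SC01. Of 36 nuclear subunits of complex I, 28 were higher and 1 was lower in SC10, and 32 were higher and 0 lower in SC07, with medians of 0.427 and 0.535. Over all genes tested, 33.5% were called higher and 32.4% lower in SC10, and 31.5% higher and 30.5% lower in SC07, and the counts of each list here stand beside these shares.

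Assembly factors were described by complex, with no test of their difference from the subunits. For complex II, 1 of 4 was higher and 2 were lower in SC10, and 1 was higher and 0 lower in SC07. For complex III, 3 of 7 were higher and 2 lower in each clone. With so few genes, these counts are not read against the shares over all genes. For complex IV, 14 of 29 were higher and 4 lower in SC10, and 20 were higher and 4 lower in SC07, with medians of 0.219 and 0.349. The 29 are not assembly factors alone, since they include NDUFA4, a subunit that the naming rule of the members leaves out. The complex IV list includes COX10, which makes haem O, at 51.2 ± 2.05 CPM in SC10, 53.1 ± 0.73 CPM in SC07 and 24.9 ± 0.63 CPM in SC01, and LRPPRC, which stabilises mitochondrial messenger RNA, at 469 ± 6.01 CPM in SC10, 455 ± 9.27 CPM in SC07 and 250.2 ± 5.14 CPM in SC01. For complex V, 3 of 5 were higher and 1 lower in each clone. TMEM70, which helps to build the c ring, averaged 47.0 ± 4.23 CPM in SC10, 42.1 ± 0.71 CPM in SC07 and 26.7 ± 0.43 CPM in SC01, and TMEM242 was the lower one, at 7.28 ± 0.78 CPM in SC10, 7.45 ± 0.048 CPM in SC07 and 16.0 ± 1.42 CPM in SC01.

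Carriers and bypass enzymes were counted in the same way. Of 7 carriers and channels for nucleotides and phosphate, 6 were higher and 1 lower in SC10, and 5 were higher and 1 lower in SC07. SLC25A4, an exchanger of ADP and ATP, averaged 149.5 ± 7.57 CPM in SC10, 185 ± 3.23 CPM in SC07 and 63.3 ± 1.23 CPM in SC01. The exchanger SLC25A5 averaged 1061 ± 61.7 CPM in SC10, 935 ± 20.8 CPM in SC07 and 634 ± 21.5 CPM in SC01. The exchanger SLC25A6, named after its values were seen, went the other way. It averaged 472 ± 8.56 CPM in SC10, 595 ± 31 CPM in SC07 and 626 ± 27.4 CPM in SC01. SLC25A6 was the lower gene in SC10 (log2 change -0.41, edgeR adjusted p = 6e-09) and did not pass in SC07. Of 10 tested genes of uncoupling and electron entry, 5 were higher and 3 lower in SC10, and 3 were higher and 1 lower in SC07, where 33.5% of all genes were higher and 32.4% lower in SC10 and 31.5% and 30.5% in SC07. The count higher in SC07 and the count lower in SC10 were close to those shares. ETFDH, which passes electrons from fatty acid oxidation to quinone, averaged 38.0 ± 1.38 CPM in SC10, 44.6 ± 3.11 CPM in SC07 and 14.9 ± 0.52 CPM in SC01, and UCP2, an inner-membrane carrier, 17.0 ± 0.85 CPM in SC10, 9.51 ± 0.86 CPM in SC07 and 3.39 ± 0.51 CPM in SC01. Of 17 genes that shape the cristae, 10 were higher and 2 lower in each clone, and CHCHD6 was highest in SC07, at 206 ± 13.1 CPM in SC10, 433 ± 19.6 CPM in SC07 and 187 ± 9.96 CPM in SC01.

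Of 13 regulators, 6 were higher and 5 lower in SC10, and 5 were higher and 7 lower in SC07. With 33.5% of all genes higher and 32.4% lower in SC10, and 31.5% and 30.5% in SC07, these counts of a short list are not read as a result about it. PPARGC1A averaged 433 ± 34.9 CPM in SC10, 468 ± 6.35 CPM in SC07 and 30.2 ± 1 CPM in SC01, whereas its relative PPARGC1B averaged 13.4 ± 1.11 CPM in SC10, 14.1 ± 1.15 CPM in SC07 and 28.8 ± 0.57 CPM in SC01. ESRRA, an estrogen-related receptor, averaged 123 ± 1.97 CPM in SC10, 101 ± 4.56 CPM in SC07 and 57.3 ± 3.85 CPM in SC01, and TFAM, which packages mitochondrial DNA and starts its transcription, 82.8 ± 3.08 CPM in SC10, 81.2 ± 1.18 CPM in SC07 and 58.5 ± 2.74 CPM in SC01. Of the factors whose motifs were searched in the promoters, those other than ESRRA are named here after their values were seen. ESRRG, another estrogen-related receptor, had few counts, 33, 174 and 7 summed over SC10, SC07 and SC01, and was called higher in both clones. Its log2 change was 2.14 in SC10 (edgeR adjusted p = 0.0033) and 4.52 in SC07 (edgeR adjusted p = 4.1e-09). NRF1, GABPA, GABPB1 and YY1 were not called higher than in SC01 in either clone. NRF1 averaged 15.3 ± 0.348 CPM in SC10, 16.0 ± 0.845 CPM in SC07 and 21 ± 0.186 CPM in SC01, with log2 changes of -0.46 in SC10 and -0.39 in SC07 past the threshold. GABPA, an ETS factor, changed by -0.35 in SC10 and -0.22 in SC07, and its partner GABPB1 by -0.32 and -0.25, all past the threshold. YY1 changed by -0.07 in SC10 (edgeR adjusted p = 0.17) and by -0.18 in SC07 (edgeR adjusted p = 0.00065). The part of these regulators in the levels of the respiratory genes was not tested.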

How the data were processed

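The authors deposited raw counts per Ensembl gene for the 9 libraries. HISAT2, featureCounts and GRCh38 are listed in the submitters' processing notes. Not given in the sources used here: versions, annotation release, strand setting and how multi-mapping reads were handled. These bear on overlapping genes and near copies. GENCODE 29 named 57055 of the 60675 IDs. The members and all lists were chosen with earlier results of these data known.

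Genes kept by filterByExpr (18009, of which 13591 protein-coding) were TMM-scaled. The robust quasi-likelihood fit of edgeR 4.0.16 (R 4.3.3) used all 9 libraries, with Benjamini-Hochberg adjustment over all genes and a threshold of 0.05. CPM values are TMM-scaled. The method was checked on simulated counts in which few genes were changed. Most genes differed from SC01 in these data, so that check does not cover scaling or error rates here. Standard errors come from the log2 change and its F statistic. Shares use counts per kilobase of the median protein-coding transcript length and an exact permutation test over all 1680 assignments of the libraries (two-sided by construction). Counts of low members were compared with exact 95% binomial intervals, which cover counting error only.

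All members are named. The largest and smallest changes per complex, members lower than in SC01 and tissue isoforms are given in detail. From each list, up to 4 genes with the largest change past the threshold and at least 5 CPM could be named, and a few of them are. Alternatives were other scalings, filters, DESeq2 1.42.0, limma-voom 3.58.1, fits of 2 clones alone, the fit without robust weights, a block for the replicate number, and fits lacking 1 library each. The union exon length and the neighbour windows were added after seeing the data.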

Additional observations from a re-analysis of the deposited data

How the results depend on the processing

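The count of respiratory genes that differed lay within 1.5 times its value under every alternative run, in each comparison. With library totals in place of TMM, the median change fell to 0.487 in SC10 and 0.52 in SC07 against SC01, while the median of all genes moved to -0.124 and -0.117. Then 38 members were higher and 3 lower in SC10, and 41 higher and 3 lower in SC07, and over all genes 5044 were higher and 7094 lower in SC10, and 4666 and 6841 in SC07. Log2 changes that turned direction under library totals were UQCR11 (-0.0248), COX7A2 (-0.0279) and ATP5F1D (-0.0309) in SC10 against SC01. Changes that turned when a library was left out ran, in SC10 against SC07, from -0.0619 to 0.0952 (COX6C), -0.0356 to 0.0596 (ATP5IF1), -0.0356 to 0.0744 (ATP5PD), -0.0495 to 0.0869 (ATP5PO), -0.0845 to 0.0148 (ATP5PF) and -0.143 to 0.0263 (ATP5S), from -0.0182 to 0.139 (COX7A2) in SC10 against SC01, and from -0.0422 to 0.0251 (ATP5MC2) in SC07 against SC01. None of these turned values passed the threshold, before or after, and the cause was not tested. Leaving out each library gave 43 to 45 members differing in SC10 against SC01, 43 to 46 in SC07 against SC01, 20 to 35 in SC10 against SC07 and 45 to 47 among the clones. The medians ran from 0.562 to 0.646, from 0.599 to 0.658 and from -0.108 to -0.0406 in the same order. The ATP5MC2 share in SC10 minus SC01 ran from -21.8 to -21.5 percentage points, and that of ATP5MC3 from 15.5 to 16.1. Union exon lengths, the neighbour windows and the share differences of SC07 minus SC01 were chosen after seeing the data. With union exon lengths, the ATP5MC1 share in SC07 minus SC01 was 2.35 percentage points, beside 0.0264 with the median transcript length. Differences close to 0 turned: the ATP5MC1 share in SC07 minus SC01 was -0.0963 without division by length and ran from -0.0589 to 0.0865 without a library, and the COX7B2 share in SC10 minus SC01 ran from -0.00876 to 0.00836. Deviations from the clone means in same-numbered libraries of different clones had correlations of -0.0195 to 0.0429. With 3 libraries per clone and SC10 replicate 3 apart, these values cannot settle whether the numbers pair the libraries. With replicate number as a block, 43, 46 and 31 members differed in the 3 comparisons, the last with 13 higher and 18 lower. The neighbour correlation was 0.861 within 2 Mb and 0.867 within 10 Mb, and 0.854 to 0.87 without a library.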
